A study of Mus musculus with 12 samples.

Results

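Dyneins are motors that walk along microtubules. In the axoneme, the microtubule core of a flagellum or cilium, outer and inner dynein arms are built from very large heavy chains that carry the motor, with intermediate and light chains at their base, and cytosolic assembly factors put the arms together before they are shipped into the tail. Cytoplasmic dynein 1 carries cargo inside the cell and works with dynactin, a separate complex, and several of its light chains also serve in other complexes. Round spermatids are the haploid germ cells in which the sperm tail begins to form, and mutations of many arm genes cause male infertility with short or immotile flagella.

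The genes described here were the entries of the deposited FPKM table (fragments per kilobase of transcript and per mapped-fragment total, a level per length) whose symbol begins with Dnah, Dnhd, Dnai, Dnal, Dnaaf, Dync1, Dynl or Dctn. Of 28643 symbols, 46 met this rule after 1 pseudogene, Dynlt1-ps1, was left out. They comprised 5 outer arm heavy chains, 11 inner arm heavy chains (Dnhd1, a heavy-chain-like protein, was counted with them), 5 axonemal intermediate and light chains, 4 assembly factors, 5 chains of cytoplasmic dynein 1, 9 light chains shared with other complexes, 6 dynactin subunits and the antisense RNA Dnah2os.

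The study sorted round spermatids by flow cytometry from 8-week-old C57BL/6 males, with cycloheximide present to hold ribosomes on the mRNA. Igf2bp3, which encodes an RNA-binding protein, was disrupted by a Cas9 frameshift made in zygotes, and Igf2bp3-/- males (impaired fertility was a criterion of choice) were compared with heterozygous Igf2bp3+/- controls, which still carry 1 disrupted allele. From each extract a portion was kept as total input (RNA-seq) and the rest was run on a sucrose gradient, from which mRNAs bearing 4 or more ribosomes were pooled (RNC-seq). Each of the 4 groups held 3 libraries, 12 in all, without other treatments. The libraries detected 23554 to 25633 genes above 0 in RNA-seq and 21490 to 22797 in RNC-seq, and read depth is unknown because FPKM do not carry it. The level of Igf2bp3 mRNA was 38.2, 38.6 and 33.4 FPKM in Igf2bp3+/- RNA-seq against 31.7, 32.5 and 31.4 in Igf2bp3-/-, and a frameshift need not lower its transcript, so this level does not check the genotype labels. In RNA-seq the 6 round spermatid markers summed to 647 to 759 FPKM in Igf2bp3+/- and 845 to 984 in Igf2bp3-/-, and 6 spermatocyte markers to 3657 to 3868 and 4143 to 4442. The 4 measured genes listed for other ciliated cells summed to 572 to 631 and 669 to 780 FPKM. Whether round spermatids themselves express genes of the spermatocyte and ciliated cell lists was not tested. Those sums therefore do not measure the share of other cells. The 7 Leydig cell markers summed to 15.4 to 22.6 FPKM in Igf2bp3+/- and 48.7 to 55.0 in Igf2bp3-/- RNA-seq, the 7 blood and macrophage markers to 5.98 to 6.66 and 12.8 to 14.6, and 7 Sertoli markers to 4.60 to 5.68 and 9.12 to 9.48, with no marker of these lists at 0 in all libraries.

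Some of these genes exist as near-identical copies, which limits how far their reads could be told apart, and the sequences are shown for that reason. The inner arm heavy chains Dnah7a (chromosome 1, 53397006 to 53706784, minus strand), Dnah7b (chromosome 1, 46066315 to 46373546, plus strand) and Dnah7c (chromosome 1, 46425592 to 46807476, plus strand; GRCm38 throughout) shared 97.0% of coding bases between Dnah7a and Dnah7b, 96.8% between Dnah7a and Dnah7c and 97.3% between Dnah7b and Dnah7c. A coding stretch of 80 bases chosen for its many differences follows, coding bases 324 to 403 of Dnah7a and Dnah7c and 456 to 535 of Dnah7b in the GENCODE transcripts, with the 10 positions that differ among the copies in capitals:
Dnah7a: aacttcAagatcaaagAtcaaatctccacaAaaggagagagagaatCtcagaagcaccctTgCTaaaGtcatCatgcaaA
Dnah7b: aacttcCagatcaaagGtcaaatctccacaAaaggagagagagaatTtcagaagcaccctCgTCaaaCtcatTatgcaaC
Dnah7c: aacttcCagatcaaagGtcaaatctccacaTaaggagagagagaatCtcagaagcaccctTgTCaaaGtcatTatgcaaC
Over the whole coding sequence, 30.9% of the 50-base words of Dnah7a also stood in Dnah7b and 29.9% in Dnah7c.

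Among the Tctex-type light chains, Dynlt1a (chromosome 17, 6306340 to 6317500, minus strand), Dynlt1c (6601671 to 6609774, plus strand) and Dynlt1f (6646602 to 6655900, minus strand) have identical coding sequences of 339 bases, which begin with the same 80 bases in all 3 genes, shown whole in lower case because no position differs:
Dynlt1a, Dynlt1c and Dynlt1f: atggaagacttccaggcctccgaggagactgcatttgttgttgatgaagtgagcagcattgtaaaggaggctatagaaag
The pseudogene outside the rule, Dynlt1-ps1, holds 99.0% of its 50-base words in that coding sequence, and it was listed at 228 to 1587 FPKM over the 12 libraries. How the authors' reads were split among these copies is not given, so the separate levels of Dynlt1a, Dynlt1c and Dynlt1f are uncertain. The entry Dynlt1 had no match in the annotation, so neither its position nor its sequence is given here.

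In control spermatids the arm genes were split between well expressed and barely detected ones. Dnah17, an outer arm heavy chain of the sperm tail (chromosome 11, 118021723 to 118130634, minus strand), was at 79.3, 95.4 and 113 FPKM in the Igf2bp3+/- RNA-seq libraries, and Dnah8, its usual partner in sperm, at 47.8, 55.8 and 64.9. Dnah5, Dnah9 and Dnah11, which build outer arms in airway cilia, had means of 0.195 ± 0.0137, 0.520 ± 0.0335 and 0.0208 ± 0.0101 FPKM (SD, n = 3). All 11 inner arm chains were above 1 FPKM, from 9.04 ± 0.943 for Dnah7c to 44.5 ± 8.17 for Dnah1, so 13 of the 16 axonemal heavy chains were present at a mean of 1 FPKM or more. Of the smaller axonemal chains, Dnali1, the light intermediate chain of inner arms, was at 110 ± 3.56 and Dnal1, a light chain bound to an outer arm motor, at 14.1 ± 2.70 FPKM.

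The assembly factor Dnaaf1 had the highest level of all 46 genes, 445, 463 and 473 FPKM in the 3 control RNA-seq libraries, while Dnaaf5 was at 26.3 ± 2.90. Some of the exonic bases of Dnaaf1, 20.7%, lie opposite the gene Taf1c, and whether reads were counted by strand is not given. Among the shared light chains Dynll1, of the LC8 type, was at 156 ± 21.3 FPKM and Dynlrb2, of the roadblock type, at 116 ± 23.8, whereas its paralog Dynlrb1 was at 1.52 ± 0.765. Dync1h1, the motor chain of cytoplasmic dynein, was at 44.0 ± 6.30 FPKM, and the dynactin subunits ran from 12.0 ± 0.877 (Dctn5) to 139 ± 6.93 (Dctn2, dynamitin). Dnah2os was above 0 in 2 of the 12 libraries only and, with Dnah11, fell under the minimum mean of 0.1 FPKM, which left 44 genes for the tests.

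**Figure D1:**
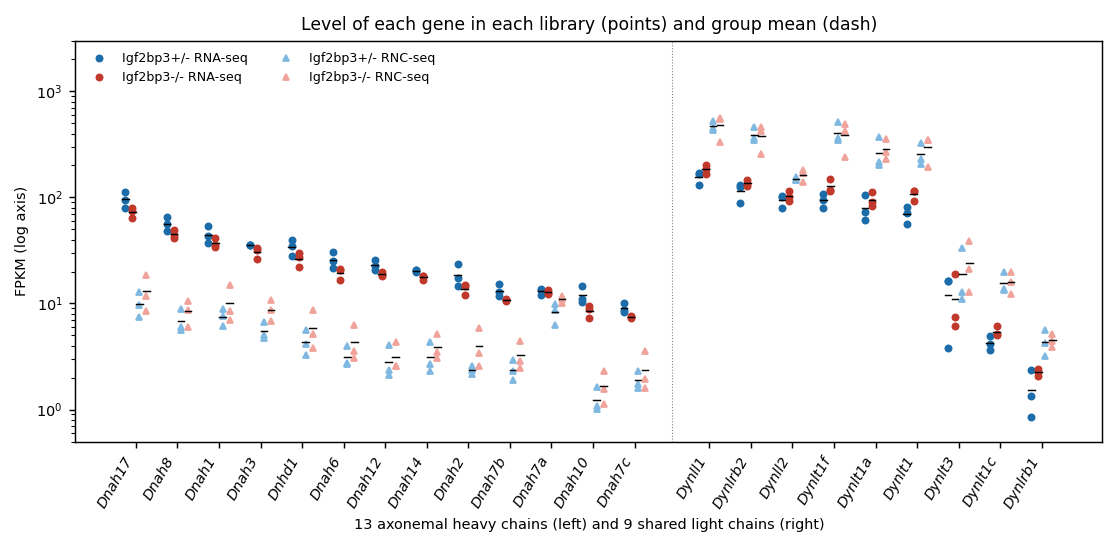
Level in FPKM (log axis) of the 13 expressed axonemal heavy chains and the 9 shared light chains, with a point for each library, circles for RNA-seq, triangles for RNC-seq, blue for Igf2bp3+/-, red for Igf2bp3-/- and a dash at each group mean. Heavy chains sit lower in RNC-seq than in RNA-seq, Dnah7a by the least, and light chains sit higher, with overlap for Dynlt3.

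The comparison of RNC-seq with RNA-seq within a genotype asks which mRNAs were over- or under-represented among heavily translated RNA, and it gave the widest differences of this gene group. In Igf2bp3+/- spermatids the mRNAs of the 13 expressed axonemal heavy chains were all lower on polysomes than in total RNA and all passed the test, with a median log2 difference of -2.90, while 8 of 9 shared light chains were higher, with a median of 1.69 over the 9. Over all 19798 genes tested the median was -0.14. Differences are of log2(FPKM + 0.1), which understates changes of low genes, and were tested with limma and Benjamini-Hochberg adjustment at 0.05. Of the 44 genes 12 were called higher and 20 lower, where 17.3% of all genes were called higher and 26.3% lower.

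Dnah17 fell from 79.3, 95.4 and 113 FPKM in RNA-seq to 7.46, 9.76 and 12.7 in RNC-seq. All 3 polysomal values lay far under the 3 total values, a log2 difference of -3.27 ± 0.21 (SE; adjusted p = 5.56e-05). Dnah10, which shares an inner arm with Dnah2, fell from 10.3, 11.1 and 14.7 to 1.02, 1.08 and 1.62 FPKM (-3.19 ± 0.22, adjusted p = 6.70e-05). Dnah8 fell by 3.05, Dnah12 by 3.03 and Dnah6 by 3.01 on the log2 scale, again with no overlap between the assays. Dnhd1 fell by 2.97 and Dnah2 by 2.90. Dync1h1, the only member outside the axonemal heavy chains with a coding sequence of their size, went from 37.1, 45.7 and 49.3 to 3.83, 5.25 and 6.46 FPKM (-3.08 ± 0.21, adjusted p = 5.88e-05), and so lay within the range of the axonemal chains.

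At the other end, Dynlt1f stood at 93.7, 109 and 79.0 FPKM in RNA-seq and at 510, 345 and 364 in RNC-seq. Every polysomal value was above every total value (2.11 ± 0.18, adjusted p = 0.000109). Dynlt1, Dynlt1c and Dynlt1a rose by 1.86, 1.84 and 1.69 on the log2 scale, but Dynlt1a, Dynlt1c and Dynlt1f share their coding sequence and are not separate pieces of evidence. Dynlrb2 rose by 1.77 and Dynlrb1 by 1.53. Dynll1 rose from 169, 168 and 132 to 529, 449 and 431 FPKM (1.59 ± 0.14, adjusted p = 0.000129) and Dynll2 by 0.68. Dynlt3 was the light chain that did not pass the test (0.74 ± 0.60, adjusted p = 0.347), with 16.5, 16.2 and 3.79 FPKM in RNA-seq against 13.0, 11.0 and 33.3, values that overlapped.

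Subunits of 1 complex differed in direction. Among the axonemal chains Dnal1 rose by 1.64 and Dnal4 by 0.49, whereas the outer arm intermediate chains Dnaic1 and Dnaic2 fell by 0.66 and 0.51 on the log2 scale. In dynactin Dctn6 and Dctn3, small subunits, rose by 1.34 and 0.94, and Dctn1 (p150Glued, the largest subunit, which binds dynein and microtubules) fell by 1.86 and Dctn2 by 0.55. Dync1li1, a light intermediate chain of cytoplasmic dynein, fell by 0.93 and the assembly factor Dnaaf2 (38.7% of its exonic bases overlap Gm49383 and Gm49384 on its own strand and 32.7% lie opposite another gene) by 0.55, and the other 3 assembly factors were not called. Dnah9 was the 1 heavy chain with a higher value on polysomes (0.14 ± 0.27, adjusted p = 0.710), with 0.531, 0.482 and 0.547 FPKM in RNA-seq and 0.755, 0.434 and 0.592 in RNC-seq.

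The 3 Dnah7 copies did not behave alike in value. Dnah7b was at 11.6, 12.8 and 15.3 FPKM in RNA-seq and 1.88, 2.33 and 2.94 in RNC-seq (-2.44 ± 0.20), and Dnah7c at 8.31, 8.70 and 10.1 and then 1.59, 1.74 and 2.33 (-2.21 ± 0.19). Dnah7a was at a like total level, 11.9, 13.5 and 13.6 FPKM, but at 9.88, 6.32 and 8.70 in RNC-seq, a ratio of means of 0.638 beside 0.180 for Dnah7b and 0.209 for Dnah7c. Its log2 difference was -0.66 ± 0.18 (adjusted p = 0.0185), the smallest among the 13 heavy chains, and the difference between the copies was not tested itself. The stretch printed above differs among the copies, and 38.6% of the 50-base words of all Dnah7a transcripts occurred in other genes.

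**Figure D2:**
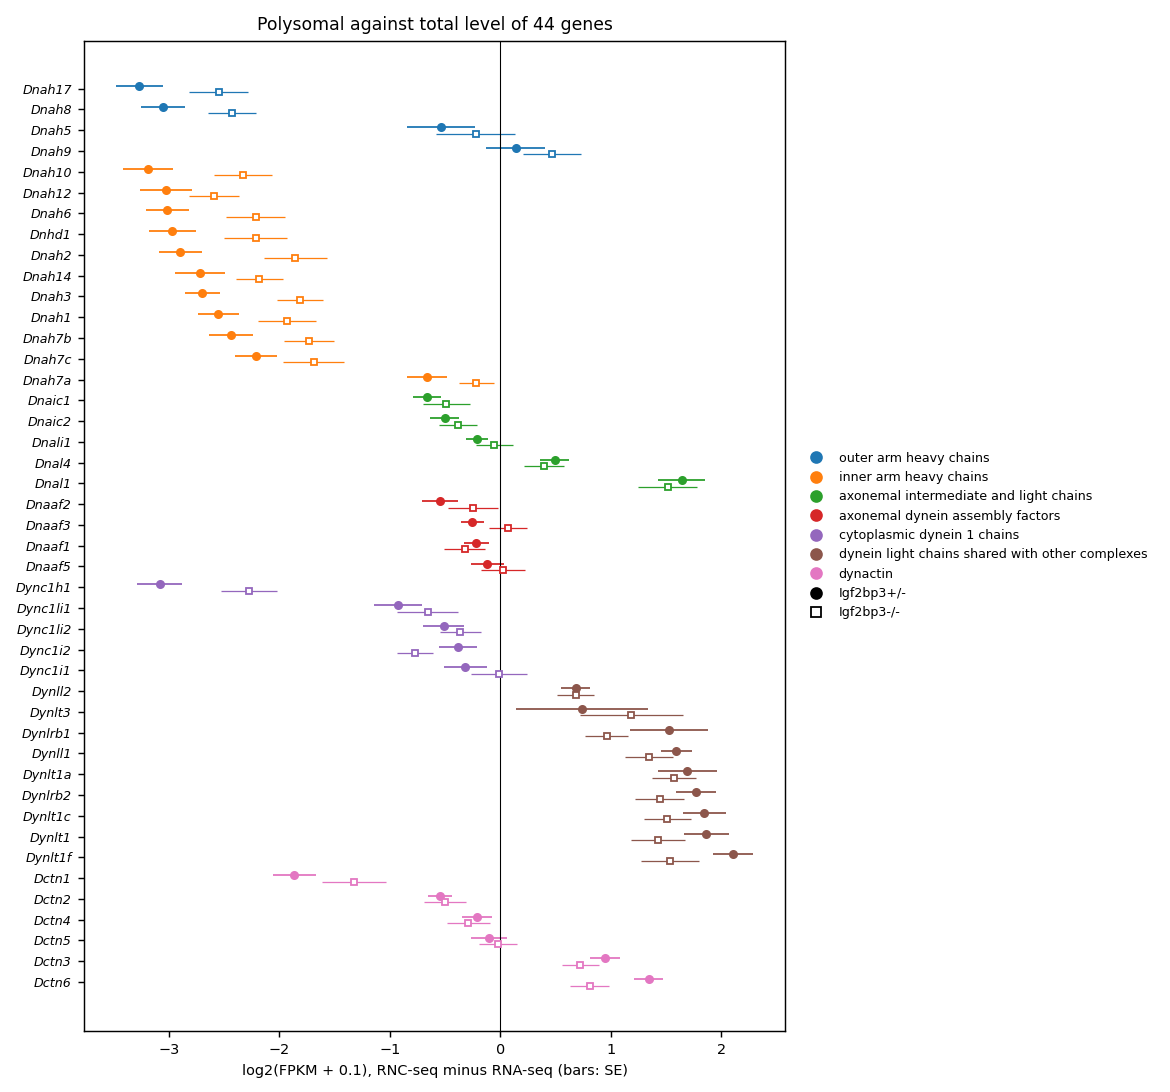
Log2 difference of RNC-seq over RNA-seq for each of the 44 tested genes, coloured by role, in Igf2bp3+/- (filled circles) and Igf2bp3-/- (open squares) spermatids, with bars of 1 standard error. In Igf2bp3+/- the 13 expressed heavy chains and Dync1h1 lie at or under -0.66, and 8 called light chains lie between 0.68 and 2.11.

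The order of the values followed the length of the coding sequence, given here as a description across genes that share the same libraries. The heavy chains had coding sequences of 11880 to 14250 bases and the shared light chains of 267 to 348, and over the 43 tested members with a length the Spearman correlation between length and the Igf2bp3+/- difference was -0.864. Long coding sequences outside the group lay low as well: 57 other genes of 9000 coding bases or more and a mean of 1 FPKM or more had a median of -2.27, and 87.7% of them were called lower. In the shortest of 5 length classes all genes had a median of 0.27. When the trend with length over all genes was removed, an alternative chosen after seeing the data, the median of the 15 tested heavy chains went from -2.72 to -0.83, with 12 lower and 3 higher. The part of length in these differences was not tested otherwise.

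**Figure D3:**
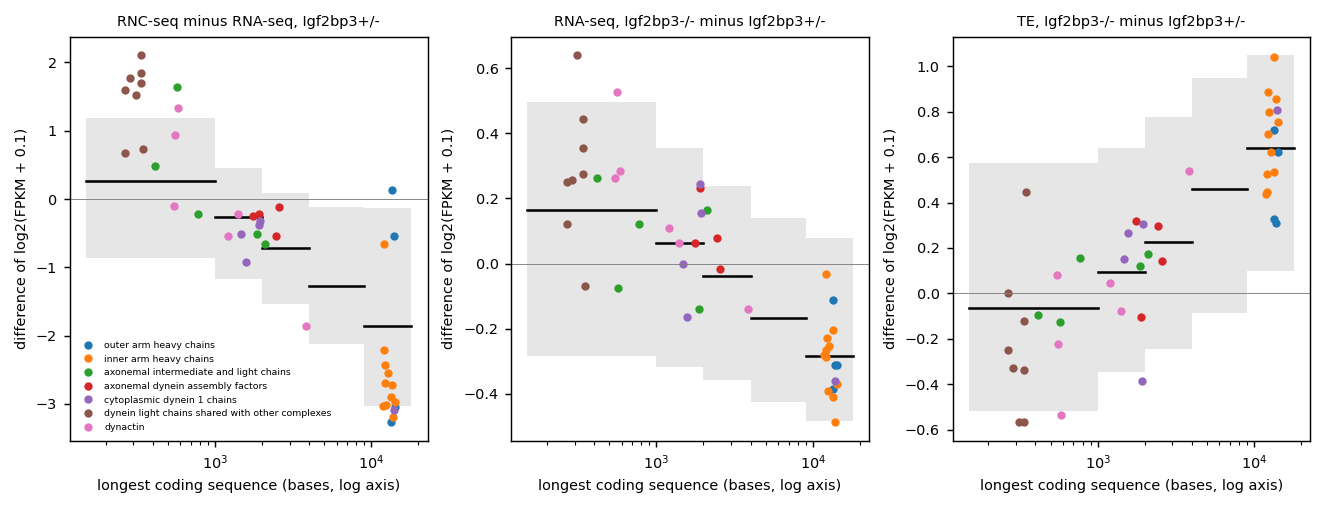
Log2 difference against coding length in bases (log axis) for RNC-seq over RNA-seq in Igf2bp3+/-, for genotype in RNA-seq and for genotype in translation efficiency, with points for the 43 members coloured by role, black lines for the medians of all genes in 5 length classes and grey boxes for their 10th to 90th percentiles. The medians fall with length in the first 2 panels and rise in the third, and the heavy chains lie near the medians of their class in the genotype panels and mostly under it in the first.

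In Igf2bp3-/- spermatids the same comparison had the same shape with mostly smaller differences. Of the 44 genes 11 were called higher and 15 lower, where the background was 9.48% higher and 11.0% lower, and the 13 expressed heavy chains had a median of -2.18 with 12 called. The lowest log2 differences were -2.59 for Dnah12, -2.55 for Dnah17, -2.43 for Dnah8, -2.33 for Dnah10 and -2.28 for Dync1h1. Dnah7a was the heavy chain not called (-0.22 ± 0.16, adjusted p = 0.364), with 12.5, 13.4 and 12.3 FPKM in RNA-seq and 10.1, 11.8 and 10.9 in RNC-seq. Its 3 polysomal values were under the total values, but narrowly. Dynlt1a rose by 1.57, Dynlt1f by 1.54, Dnal1 and Dynlt1c by 1.51 each and Dynlrb2 by 1.44, and 8 of 9 light chains were again called. Dync1i2, an intermediate chain of cytoplasmic dynein, went against this with -0.77 (adjusted p = 0.0129), beside -0.38 in Igf2bp3+/- (adjusted p = 0.106, not called).

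Whether loss of Igf2bp3 changed the levels of these mRNAs was asked in each assay. In RNA-seq none of the 44 genes passed the limma test after adjustment, against 52 of 20352 genes or 0.256%. Before adjustment, a p under 0.05 was met by 8 genes with higher and 11 with lower values in Igf2bp3-/-, where the background was 10.4% and 5.32%. All 15 tested heavy chains had lower values in Igf2bp3-/-, with a median log2 difference of -0.29, where 43.8% of all genes were lower. Of the other 29 genes 22 had higher values, with a median of 0.16, where 56.2% of all genes were higher and their median was 0.05. In whole-cell RNA, fewer cells of a type and less RNA per cell cannot be told apart. The round spermatid, spermatocyte, ciliated cell, Leydig, Sertoli and blood marker sums given above were all higher in Igf2bp3-/- without overlap. Other marker sums overlapped between Igf2bp3+/- and Igf2bp3-/- RNA-seq. Elongating spermatid markers summed to 8421 to 10870 and 9444 to 9561 FPKM, and spermatogonia markers to 7.365 to 10.35 and 7.522 to 9.601. Peritubular markers summed to 1.547 to 1.733 and 1.048 to 1.595 FPKM. In RNC-seq, Leydig markers summed to 6.75 to 14.3 FPKM in Igf2bp3+/- and 51.5 to 103 in Igf2bp3-/-. Sertoli markers summed to 1.775 to 2.051 and 4.141 to 5.595 there. Blood and macrophage markers summed to 11.1 to 14.4 and 16.4 to 33.2, and peritubular markers to 0.783 to 1.183 and 1.321 to 2.086. The other lists overlapped between genotypes in RNC-seq. The part of cell composition in the values of the 44 genes was not tested in either assay.

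Dnah10 had the lowest difference, with 10.3, 11.1 and 14.7 FPKM in Igf2bp3+/- and 8.80, 9.38 and 7.36 in Igf2bp3-/-. The groups did not overlap, and the difference was -0.49 ± 0.16 (adjusted p = 0.222). Such separation was seen for 8 heavy chains in the lower direction, where 8.68% of all genes were lower without overlap. The study named Dnah2 (chromosome 11, 69420809 to 69549110, minus strand) as an IGF2BP3 target with raised translation, in part from these libraries. In RNA-seq Dnah2 was at 14.8, 17.5 and 23.8 FPKM against 14.9, 14.6 and 11.9. Its groups overlapped, since the first Igf2bp3-/- library lay just above the lowest control (-0.41 ± 0.18, adjusted p = 0.310). Dnhd1, also named by the study, was at 28.3, 34.8 and 39.9 against 27.5, 30.0 and 22.1 (-0.37 ± 0.15, adjusted p = 0.304), and 22.6% of its 50-base words also occur in Gm45799. Dnah6 and Dnah17 both had differences of -0.39.

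The highest differences belonged to light chains and Dctn3. Dynlt1 was at 80.6, 71.4 and 55.8 FPKM in Igf2bp3+/- and at 116, 92.7 and 114 in Igf2bp3-/-. All Igf2bp3-/- values were above all control values (0.64 ± 0.15, adjusted p = 0.157). How much sequence this entry shares with the other Dynlt1 genes was not measured, as it has no annotation match. Dctn3 (chromosome 4, 41714798 to 41723170, minus strand), a small subunit of the dynactin shoulder, was at 56.4, 58.9 and 44.3 against 66.5, 77.3 and 85.8 (0.53 ± 0.14, adjusted p = 0.172), again without overlap. Dynlrb1 was at 0.857, 2.36 and 1.34 FPKM against 2.41, 2.26 and 2.07 (0.64 ± 0.31), values that overlapped at a low level. Dynlt1f and Dynlt1c differed by 0.44 and 0.36. In all, 9 genes were higher without overlap, where 14.1% of all genes were. By role, 8 of 9 light chains had higher values with a median of 0.28, 5 of 6 dynactin subunits with 0.19, 3 of 4 assembly factors with 0.07 and 3 of 5 axonemal intermediate and light chains with 0.12.

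**Figure D4:**
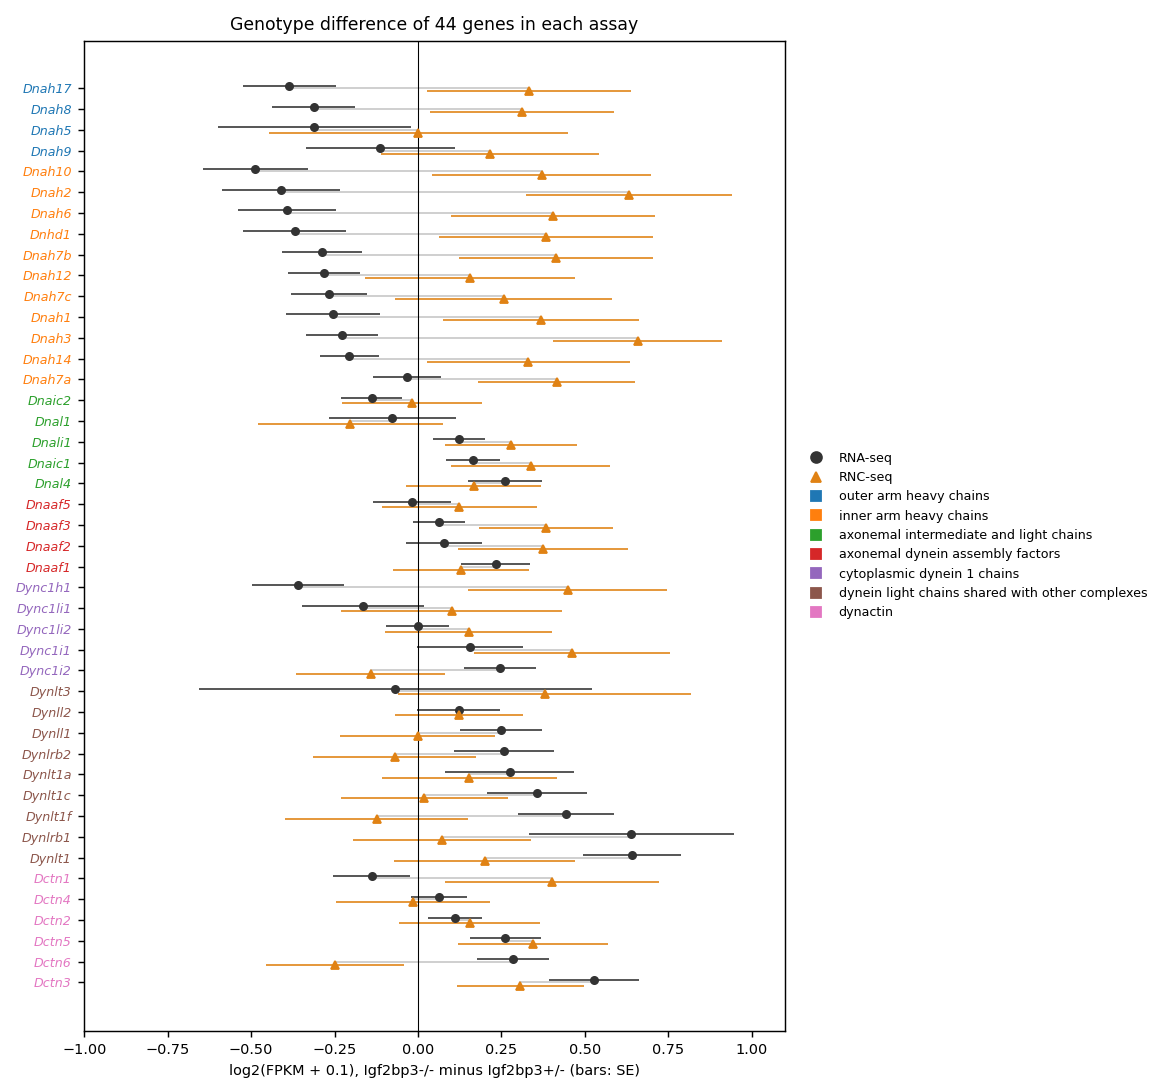
Log2 difference of Igf2bp3-/- over Igf2bp3+/- in RNA-seq (dark circles) and RNC-seq (orange triangles) for each of the 44 tested genes, names coloured by role, with bars of 1 standard error. Heavy chains lie under 0 in RNA-seq and at or above 0 in RNC-seq, and none of the 44 passed the adjusted limit in either assay.

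In RNC-seq none of the 44 genes passed the adjusted limit either, with 0.115% of 19051 genes called, and the smallest adjusted p was 0.744. Dnah3 was the 1 gene with an unadjusted p under 0.05, where 5.36% of all genes were higher at that level. Heavy chain values pointed the other way from RNA-seq: 15 of 15 had a difference above 0 in Igf2bp3-/-, with a median of 0.37. Of all genes 65.3% were higher, with a median of 0.13. The 13 expressed chains differed by 0.16 to 0.66, while Dnah5, near the filter of 0.1 FPKM, was at 0.001 ± 0.45. After median centring 14 of 15 heavy chains were higher with a median of 0.25. Dnah3 (chromosome 7, 119922671 to 120095280, minus strand) was at 5.03, 4.70 and 6.69 FPKM in Igf2bp3+/- and 8.59, 10.8 and 6.82 in Igf2bp3-/-. The lowest Igf2bp3-/- value was just above the highest control (0.66 ± 0.25), and 10.5% of its exonic bases lie opposite Lyrm1. Dnah2 was at 2.19, 2.57 and 2.37 against 3.43, 5.88 and 2.55, with the third Igf2bp3-/- library among the controls (0.63 ± 0.31, adjusted p = 0.768).

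Dync1i1, Dync1h1 and Dnah7a had differences of 0.46, 0.45 and 0.42, and Dnhd1 of 0.39. Dnah7a was at 9.88, 6.32 and 8.70 FPKM against 10.1, 11.8 and 10.9, without overlap. Including Dnah3, Dnah7a, Dctn3 and Dnaaf3, 4 of the 44 genes were higher without overlap, where 9.44% of all genes were. The lowest differences were those of Dctn6 at -0.25, Dnal1 at -0.20, Dync1i2 at -0.14, Dynlt1f at -0.12 and Dynlrb2 at -0.07, each smaller than its standard error except that of Dctn6.

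The RNC-seq values of heavy chains rested in good part on 1 library. The second Igf2bp3-/- replicate held the highest of the 6 values for 13 of 13 expressed heavy chains and the lowest for 6 of 9 light chains. Summed over the 13 chains, RNC-seq gave 51.8, 53.3 and 72.9 FPKM in Igf2bp3+/- and 71.2, 108 and 60.7 in Igf2bp3-/-. The first and the third Igf2bp3-/- libraries thus lay within the range of the controls and the second well above every other library. Without that second library the heavy chain median was 0.12 in place of 0.37, with 12 higher and 2 lower.

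In RNA-seq the sums were 347, 397 and 461 FPKM in Igf2bp3+/- and 327, 348 and 289 in Igf2bp3-/-, so that the groups touched at 347 and 348. The third control library was the highest of 6 for 12 of 13 heavy chains and the lowest for 8 of 9 light chains, and the third Igf2bp3-/- library was the lowest for 12 heavy chains and the highest for 6 light chains. Without the third control library the heavy chain median was -0.20, with 14 lower and 1 higher. Light chain sums were 666, 710 and 505 FPKM in Igf2bp3+/- against 747, 714 and 855, higher in Igf2bp3-/- but nearly touching at 710 and 714.

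**Figure D5:**
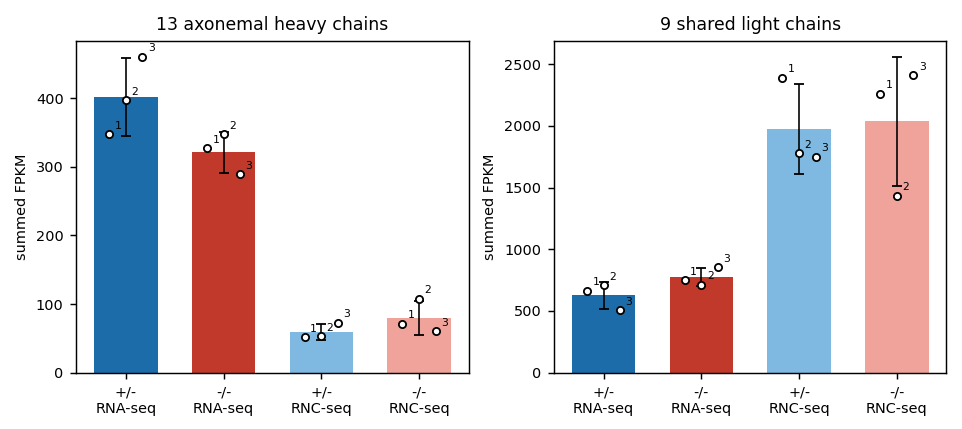
Summed FPKM of the 13 expressed heavy chains and of the 9 shared light chains, with a numbered point for each of the 12 libraries, bars from 0 at the group means and error bars of 1 SD (n = 3). Heavy chains sum to 289 to 461 in RNA-seq and 51.8 to 108 in RNC-seq, and light chains to 505 to 855 and 1435 to 2411.

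Translation efficiency, the ratio of RNC-seq to RNA-seq that the study uses, was compared between genotypes as the interaction of assay and genotype in 1 fit over the 12 libraries, and so reuses the values above. None of the 44 genes passed the adjusted limit, where 1 of 18414 genes did (0.00543%), and the smallest adjusted p among the 44 was 0.686. Unadjusted, 6 genes were higher and 1 lower at a p under 0.05, with 5.54% and 1.58% of all genes. The 15 heavy chains all had higher values in Igf2bp3-/-, with a median of 0.62, where 55.6% of all genes were higher with a median of 0.06, and 7 of 9 light chains had lower ones, with a median of -0.33, where 44.4% were lower. The heavy chain median was 0.50 after median centring, 0.43 without the second Igf2bp3-/- RNC-seq library and 0.49 without both libraries of that number.

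Dnah2 had the highest difference, 1.04 ± 0.37 (unadjusted p = 0.0132 by limma, adjusted p = 0.686). Dnah3 followed with 0.89 ± 0.27, then Dnah10 with 0.86 ± 0.36, Dync1h1 with 0.81 ± 0.35 and Dnah6 with 0.80 ± 0.35. Dnhd1 was at 0.75 ± 0.38. The lowest were Dynlt1f and Dynlrb1, both at -0.57, Dctn6 at -0.53 ± 0.22, Dynlt1 at -0.44 and Dync1i2 at -0.39. Dctn6 was the 1 gene lower at an unadjusted p under 0.05. The study, by its own ratio of FPKM, counted Dnah2 and Dnhd1 as upregulated in translation, and neither passed the adjusted limit here.

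Genotype differences also ran with coding length, in members and in other genes. Across the 43 members the Spearman correlation with length was -0.840 in RNA-seq, 0.555 in RNC-seq and 0.833 in translation efficiency, given as descriptions since these 3 measures share libraries. Within the 13 expressed heavy chains alone it was -0.457, -0.025 and 0.470, so in RNC-seq no trend was seen inside that class. Other expressed genes of 9000 coding bases or more had medians of -0.31 in RNA-seq (64 genes, 9 higher), 0.45 in RNC-seq (45 genes, 42 higher) and 0.79 in translation efficiency (56 genes, 52 higher). With the length trend removed, the heavy chain medians were -0.03, -0.02 and -0.07, with 5, 5 and 7 of 15 chains higher. Whether the heavy chains differ from other long genes was not tested.

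Promoter sequence was examined as a feature the rule did not use, with windows from 250 bases before to 50 bases after the RefSeq start of each gene (GRCm38.p6), available for 36 of the 46 genes. The X-box motif of RFX factors, regulators of ciliary genes, was searched on both strands as GTNNCC, any 3 bases, then GNAAC. It was present in 4 of the 36 genes or 11.1%, in 2.49% of all genes with a window and in 3.14% of those with deposited FPKM. A gene counted if any of its windows held the motif. Stretches of 50 bases around it are shown on the strand of the gene with the motif in capitals, which reads on the opposite strand in Dnaaf2 and Dnaaf5:
Dctn3 (chr4:41723274-41723323, minus strand): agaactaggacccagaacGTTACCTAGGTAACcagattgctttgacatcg
Dnaaf2 (chr12:69198415-69198464, minus strand): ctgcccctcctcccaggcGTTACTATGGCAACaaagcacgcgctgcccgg
Dnaaf5 (chr5:139150199-139150248, plus strand): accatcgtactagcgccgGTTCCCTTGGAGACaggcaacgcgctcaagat
Dnah17 (chr11:118129347-118129396, minus strand): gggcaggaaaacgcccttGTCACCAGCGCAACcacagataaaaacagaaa
The cAMP response element TGACGTCA, a palindrome bound by CREB and CREM factors, was found in 2 of the 36 genes, 5.56%, Dctn3 and Dnah6. It stood in 2.03% of all genes with a window and in 2.93% of those with deposited FPKM. A match describes letters in a window and is not a binding site. Of the 4 genes with an X-box, only Dctn3 had a higher value on polysomes in Igf2bp3+/-, at 0.94. Dnah17 at -3.27 and Dnaaf2 at -0.55 were called lower, and Dnaaf5 at -0.12 was not called.

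Genes that work with these chains but carry other names lay within the range of the 44 genes in Igf2bp3+/- loading, over narrower spans. Docking and further assembly factors ran from -1.22 to 0.92 on the log2 scale, and axonemal chains under other names from -0.90 to 0.75. Of 5 dynein 2 genes, the motor of return transport in cilia, Dync2h1, its heavy chain, fell by 2.88 and Wdr60 by 1.80 on the log2 scale, and Tctex1d2 and Dync2li1, its light and light intermediate chains, rose by 1.42 and 0.76. Of 19 genes of the dynactin filament, regulators and adaptors 9 were called lower and 0 higher, among them Ninl, an adaptor, at -2.80, where 26.3% of all genes were called lower and 17.3% higher. Of 18 docking and further assembly factors 4 were called higher and 7 lower, and of 7 axonemal chains under other names 1 and 2, the last near that background. None of these 49 genes passed the adjusted limma limit for genotype in RNA-seq, RNC-seq or translation efficiency.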

How the data were processed

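RNA-seq and RNC-seq of sorted round spermatids were analysed in 12 libraries, 3 for each genotype and assay, grouped by the sample labels. The deposited table holds FPKM made by the authors with CASAVA 1.8, Trim Galore 0.6.6, HISAT2 and StringTie 2.1.7 (submitters' processing notes) on GRCm38, and the annotation release and use of strand are not given in the sources used here. Labels and methods name different kits and sequencers. FPKM keep no depth. Per the methods, cells came from single mice and the input and polysomal libraries of a mouse share 1 extract, but the labels do not say which numbers belong to 1 mouse, so p-values measure the spread between these libraries. Of 28668 rows, 25 with date-like symbols (0.0995% of FPKM) were dropped. Columns named WT are the Igf2bp3+/- controls by their labels.

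From these values log2(FPKM + 0.1) was fitted with limma 3.58.1 (R 4.3.3, mean trend) for genes with a mean FPKM above 0.1, in each assay for translation efficiency, with Benjamini-Hochberg adjustment over all genes at 0.05, and tested first on simulated data. The 5 comparisons were genotype in RNA-seq, in RNC-seq and as interaction, and RNC-seq over RNA-seq in each genotype. Annotation came from GENCODE M21 (45 of 46 symbols matched), promoters from RefSeq, and identities were computed with Biopython 1.88. The genes and lists were chosen with earlier results of these data known. Differences are named for the 5 highest and 5 lowest genes of a mean FPKM of 1 or more, for genes past the limit, and for Dnah2 and Dnhd1, and others named were chosen after their values were seen. Alternatives covered the pseudocount, the filter, scaling, array weights, a replicate block, a joint fit and each library left out, and after seeing the data the removal of a trend with coding length and of both Igf2bp3-/- libraries of number 2.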

Additional observations from a re-analysis of the deposited data

Results flagged for a closer look

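All 13 expressed heavy chains had lower values in RNA-seq and higher values in RNC-seq of Igf2bp3-/-. Dnah3 was singled out because its groups separated without overlap in opposite directions in RNA-seq and RNC-seq. For Dnah3, an inner arm heavy chain, every Igf2bp3-/- library was lower than every Igf2bp3+/- library in RNA-seq and every one was higher in RNC-seq. How many of all genes separate in this way was not counted. The interaction of genotype and assay in limma was fitted to the same values that singled out Dnah3, so it is no separate evidence. It gave 0.89 ± 0.27 on the log2 scale with an unadjusted p of 0.00496 and an adjusted p of 0.686. Dnah3 thus failed the correction over 18414 genes. Its highest RNC-seq value, 10.8 FPKM, came from the second Igf2bp3-/- library, which was the highest for all 13 expressed heavy chains.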

How the results depend on the processing

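The 32 and 26 members called for RNC-seq over RNA-seq ranged over the alternatives from 29 to 37 in Igf2bp3+/- and from 20 to 29 in Igf2bp3-/-, and no member was called for genotype under any. Of 1389 alternative values for 81 results, 1326 stayed within their limits, 55 moved and 8 turned sign, and for none of these was the cause tested. Depth is unknown, so no counting error can be given for weakly expressed genes such as Dnah5 and Dnah9.

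Genes called for genotype in RNA-seq went from 52 to 31 with no filter, 84 with array weights, 124 with the length trend removed and 9 to 38 with a library left out. In RNC-seq 22 became 2 with no filter, 13 with median centring (6 higher and 7 lower, from 15 and 7), 12 with quantile normalization (5 and 7), 48 with all 12 libraries in 1 fit and 0 to 20 with a library left out, the 0 without Igf2bp3-/- replicate 1. For translation efficiency 1 became 0 with a pseudocount of 1, a mean FPKM above 1 or array weights, and 1 to 2 with a library left out. For RNC-seq over RNA-seq in Igf2bp3+/-, 8636 genes became 5494 with the length trend removed, and 3431 higher and 5205 lower became 4848 and 4109 with median centring, 4530 and 4389 with quantile normalization and 2534 and 6790 without CT010467.1, which holds 5.68 to 19.4% of summed FPKM. In Igf2bp3-/-, 4068 became 2309 with the length trend removed and 1134 to 6523 with a library left out, the extremes without RNA-seq replicate 1 and without RNC-seq replicate 2, and 1882 higher and 2186 lower became 2409 and 1949 centred, 2062 and 2137 by quantiles and 1241 and 3499 without CT010467.1. RNA-seq calls of 40 higher and 12 lower became 33 and 19 without CT010467.1, and RNC-seq calls 8 and 7. Centring moved the median of all genes from 0.13 to 0.01 for genotype in RNC-seq.

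The heavy chain median for genotype in RNA-seq was -0.40 without CT010467.1. With the length trend removed it was -0.025 in RNA-seq, -0.072 for translation efficiency, -0.83 for RNC-seq over RNA-seq in Igf2bp3+/- and -0.71 in Igf2bp3-/-. For genotype in RNC-seq Dynlrb2 turned to 0.019 with array weights and Dnhd1 to -0.0054 with the length trend removed, and with a library left out Dnal1 ran from -0.42 to 0.068, Dynlt1f from -0.33 to 0.19 and Dynlrb2 from -0.23 to 0.19.

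Deviations of the total and polysomal library of 1 number had correlations of -0.0583 to 0.0894. Those of the genotypes had -0.00722 to 0.0659 in RNA-seq and -0.0144 to 0.154 in RNC-seq. Low correlations of this kind cannot show whether the numbers pair the libraries, which stays unknown. With the replicate block 4 genes were called for genotype in RNA-seq and 0 for translation efficiency, and 33 and 26 members for RNC-seq over RNA-seq.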
